A study of Mus musculus with 4 samples.

Results

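The genes described here are 10 members of the NF-kB system in mouse spleen cells: the subunit genes Nfkb1, Nfkb2 and Rel, the IkB-type genes Nfkbia, Nfkbie, Nfkbid and Bcl3, and the feedback regulators Tnfaip3, Tnip1 and Birc3. They were picked by symbol for their place in the pathway, with earlier results of these data known, and each was found once among the 31053 genes of the count tables. Their levels were read in 4 droplet single-cell RNA libraries of live CD45+ splenocytes, 1 library per group. The groups were aged C57BL/6 mice without miR-146a in the whole body and with miR-155 deleted in T cells (miR146aKO_miR155TCKO, called the double knockout), aged mice without miR-146a (146aKO), aged WT mice and young WT mice. The WT mice carried the miR155 fl/fl allele without a deletion. The aged mice were 15 months old, and each aged library held cells pooled from 3 to 6 mice. The sources used here give neither the age and pool size of the young mice nor the Cre line that deleted miR-155 in T cells. The sorting gate was set for low forward and side scatter, which favours lymphocytes. With 1 library per group no difference between groups was tested, and every interval below covers counting error only.

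NF-kB is a family of dimeric transcription factors that is held in the cytoplasm of resting cells by IkB proteins. Signals from antigen receptors, TNF-family receptors and Toll-like receptors activate IkB kinase, IkB is degraded, and the dimers enter the nucleus. Many of the first genes they switch on encode their own inhibitors, above all Nfkbia (IkB-alpha) and Tnfaip3 (the ubiquitin-editing enzyme A20), so the level of these transcripts is a common readout of recent activity. The miR-146a gene is itself an NF-kB target, and the microRNA is known to restrain signalling by acting on the adaptors Traf6 and Irak1, whereas miR-155 promotes the activation of T cells.

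The mature sequences of the microRNAs deleted in these mice, from RefSeq on GRCm38.p6, are printed with the seed (bases 2 to 8) in capitals. The miR-146a sequence lies at chr11:43374435-43374456 on the minus strand and the miR-155 sequence at chr16:84714143-84714165 on the plus strand.
mmu-miR-146a-5p: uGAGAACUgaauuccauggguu
mmu-miR-155-5p: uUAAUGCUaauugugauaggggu
Letters complementary to a seed were then sought in the 3′ UTRs of the GENCODE annotation of GRCm38, on the transcript strand. Of the 10 genes, Rel was the 1 with letters matching the miR-146a seed, at 4 places, and 11.7% of the 20974 genes with an annotated 3′ UTR held at least 1 such match. The longest of these matches lies in the stretch chr11:23736991-23737020 on the minus strand, with the 8 matching letters in capitals.
Rel 3′ UTR: atttttttttaAGTTCTCAagatactggta
No member held letters matching the miR-155 seed, against 8.77% of genes. A letter match is a description of the sequence and not evidence of a working site.

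Promoter windows of 300 bases, from 250 before to 50 after each annotated start, were found in the RefSeq table for 9 of the 10 genes. Nfkb1 had no entry. The kappaB consensus, the 10-base motif bound by NF-kB dimers, was sought on both strands, and a stretch that matched on either was counted once per window. It was present in at least 1 window of 8 of the 9 genes, and in 5.14% of the 27025 genes in the table. Birc3 was the gene whose windows held no match, which says only that these letters were not found there. The match nearest to the start is printed for each gene, on the strand of the gene and on GRCm38.p6, with the motif in capitals.
Nfkb2, chr19:46305685-46305734, plus strand: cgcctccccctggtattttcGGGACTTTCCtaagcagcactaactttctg
Rel, chr11:23771031-23771080, minus strand: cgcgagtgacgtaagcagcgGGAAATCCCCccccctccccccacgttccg
Nfkbia, chr12:55492647-55492696, minus strand: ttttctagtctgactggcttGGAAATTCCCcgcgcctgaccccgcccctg
Nfkbie, chr17:45555574-45555623, plus strand: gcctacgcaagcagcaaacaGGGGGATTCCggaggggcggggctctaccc
Nfkbid, chr7:30422205-30422254, plus strand: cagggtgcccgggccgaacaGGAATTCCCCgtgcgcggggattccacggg
Bcl3, chr7:19822724-19822773, minus strand: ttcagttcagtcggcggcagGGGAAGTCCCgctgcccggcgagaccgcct
Tnfaip3, chr10:19015393-19015442, minus strand: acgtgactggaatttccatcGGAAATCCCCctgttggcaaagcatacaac
Tnip1, chr11:54962967-54963016, minus strand: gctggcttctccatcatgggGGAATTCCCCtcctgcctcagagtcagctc
The motif of Nfkbia lay 29 bases before the start, that of Tnfaip3 12 bases before and that of Tnip1 56 bases before.

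The libraries held between 5702 and 7626 barcodes and between 17561683 and 22399381 UMIs (unique molecular identifiers, each standing for 1 captured transcript). The authors' cell type names covered 24143 of 27577 barcodes. UMIs were summed per library over T cells, B cells and myeloid cells, and over each named type, and are given as CPM (UMIs of the gene divided by all UMIs of the same cells, times 1000000). Defining markers followed the class names. The summed level of 5 T cell markers was 4007 to 5246 CPM in T cells and 285 to 368 CPM in B cells, and that of 5 B cell markers was 8413 to 9720 CPM in B cells and 96.7 to 231 CPM in T cells. Some type names went against their markers. In cells annotated GC Centroblast the proliferation gene Mki67 was at 1.53 to 2.18 CPM over the libraries, against 219 to 350 CPM in cells annotated GC Centrocyte, and Gcsam was at 0 in both WT libraries. In cells annotated Early Act Cd8 the summed CD8 markers Cd8a and Cd8b1 ranged from 19.5 to 715 CPM, against 1948 to 2385 CPM in naive CD8 T cells. Their Cd4 level ranged from 46.6 to 169 CPM, and they held 1.41% to 3.90% of T cell UMIs. Cells of these names are therefore called by the authors' label only. Cells annotated T/B dbl were kept outside the classes, and no doublet caller was run. Over all libraries 416 barcode sequences occurred in more than 1 library, 315 of them among named cells.

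The members differed in where they were highest, with overlap between types for most of them. Averaged over libraries with at least 50 cells of a type, Rel and Nfkbie were highest in B cell types, Nfkbia and Tnfaip3 in memory CD4 T cells (Mem Cd4), and Nfkb1 and Tnip1 in monocytes or dendritic cells. Rel, which encodes c-Rel, a subunit prominent in lymphocytes, averaged 109 CPM in GC Centroblast cells (range over libraries 91.6 to 132), 104 CPM in marginal zone B cells (MZ B) and 103 CPM in transitional B cells (Trans B), and these ranges overlapped. Nfkbia averaged 713 CPM in Mem Cd4 cells, where it ranged from 364 to 938 CPM, and 617 CPM in Ly6c- monocytes. Nfkb1, the gene of p105 and its product p50, averaged 239 CPM in Ly6c- monocytes and 235 CPM in DC/Mac cells, above the 136 CPM of Mem Cd4 cells, and the ranges of DC/Mac and Mem Cd4 cells did not overlap.

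Other members were less evenly placed. Nfkbid, the gene of the nuclear protein IkB-NS, averaged 109 CPM in GC Centroblast cells and 15.8 CPM in follicular B cells (Fo B). Birc3, which encodes the ubiquitin ligase cIAP2, averaged 117 CPM in Trans B and 98.6 CPM in Fo B cells, with overlapping ranges. Tnip1, whose product binds A20, averaged 114 CPM in Ly6c- monocytes, 80.0 CPM in Mem Cd4 cells and 52.4 CPM in memory CD8 T cells (Mem Cd8). Granulocytes (Gran), which reached 50 cells in the 2 knockout libraries alone, were below the T cell class and the B cell class for all 10 genes in both. UMI counts are not corrected for transcript length, so levels are compared here between cells and not between genes.

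**Figure D1:**
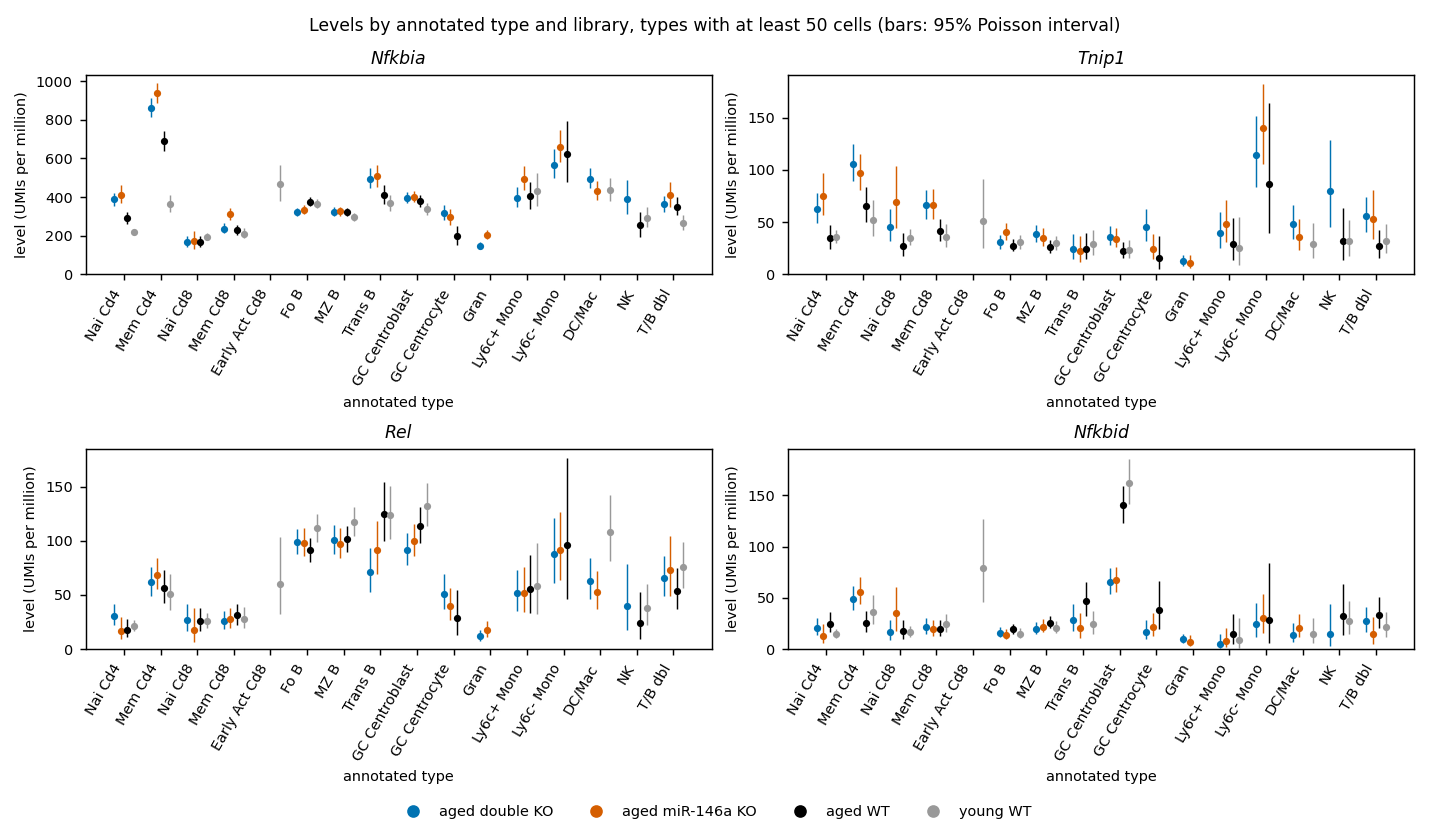
Levels of Nfkbia, Tnip1, Rel and Nfkbid (CPM, linear axis) in each annotated type with at least 50 cells, 1 point per library with its 95% Poisson interval. Nfkbia peaks in Mem Cd4 cells of the 3 aged libraries, Rel sits higher in Fo B, MZ B, Trans B and GC Centroblast cells than in the T cell types, and Nfkbid stands out in GC Centroblast cells, at 140 CPM in aged WT and 162 CPM in young WT.

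The class with the highest level differed between libraries for part of the list. Nfkb2, Rel and Nfkbie were highest in B cells, and Nfkb1 in myeloid cells, in all 4 libraries. Nfkbia and Tnfaip3 were highest in T cells in the double knockout and in 146aKO, and in myeloid cells in aged WT and young WT. Nfkbid was highest in T cells in both knockouts and in B cells in both WT libraries.

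In T cells summed as a class, loss of miR-146a went with higher levels of every member. All 10 genes were above aged WT in 146aKO, with a median log2 ratio of 0.57, whereas a ratio above 1 was found for 56.8% of the 8763 genes with at least 100 UMIs in T cells, and the median of those genes was 0.05. Of the 10, 4 were at least 1.5-fold higher, a size that 7.09% of all genes reached. All 10 had at least 100 UMIs in the class, so none was left out. Bcl3, Nfkbid, Nfkbie and Birc3 lay between 1.34 and 1.49, and Nfkb1 and Rel were the members that differed least.

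Among the inhibitors, Nfkbia carried the most UMIs. It was at 465 CPM in the double knockout, 565 CPM in 146aKO, 338 CPM in aged WT and 231 CPM in young WT, from 2349, 2232, 1544 and 1844 UMIs. The 4 libraries were thus ordered with 146aKO on top and young WT lowest, and no 2 of their intervals overlapped. The ratio of 146aKO to aged WT was 1.67 (95% counting interval 1.57 to 1.78). Tnfaip3, at 22.0, 31.7, 20.6 and 9.01 CPM in the double knockout, 146aKO, aged WT and young WT, followed the same order in fewer UMIs, 72 to 125 per library, and its ratio of 146aKO to aged WT was 1.54 (1.17 to 2.03). Tnip1, the partner of A20, showed another pattern, with 73.3 CPM in the double knockout and 78.5 CPM in 146aKO against 41.9 CPM in aged WT and 37.6 CPM in young WT. The intervals of the 2 knockouts overlapped, and both lay above those of both WT libraries. Its ratio of 146aKO to aged WT, 1.88 (1.56 to 2.26), was the highest among the members.

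The remaining inhibitors differed by less. Nfkbie (IkB-epsilon) was at 29.7 CPM in the double knockout, 35.7 CPM in 146aKO, 25.6 CPM in aged WT and 17.4 CPM in young WT. Nfkbid was at 29.9, 34.7, 23.2 and 20.7 CPM in the same libraries, and Bcl3, the gene of a nuclear IkB that works with p50 and p52 dimers, at 41.4, 51.9, 35.1 and 13.6 CPM. For Nfkbid in 146aKO the 10 T cells with the most UMIs held 27.0% of its 137 UMIs, so its counting interval, 1.15 to 1.94 around 1.49, does not cover the spread between cells. Birc3 was at 39.6, 50.2, 37.5 and 30.4 CPM, a ratio of 1.34 (1.09 to 1.65) for 146aKO over aged WT.

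Of the subunits, Nfkb2, the gene of p100 and p52 in the alternative pathway, differed most. It was at 47.9 CPM in the double knockout, 66.6 CPM in 146aKO, 39.9 CPM in aged WT and 22.9 CPM in young WT, and its ratio of 146aKO to aged WT was 1.67 (1.38 to 2.03). Nfkb1 was at 95.5, 103, 82.2 and 64.7 CPM, a ratio of 1.26 (1.09 to 1.45). Rel, the member with miR-146a seed matches, was at 37.8, 40.3, 33.5 and 27.7 CPM, and its ratio of 1.20 had an interval that included 1 (0.96 to 1.51).

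**Figure D2:**
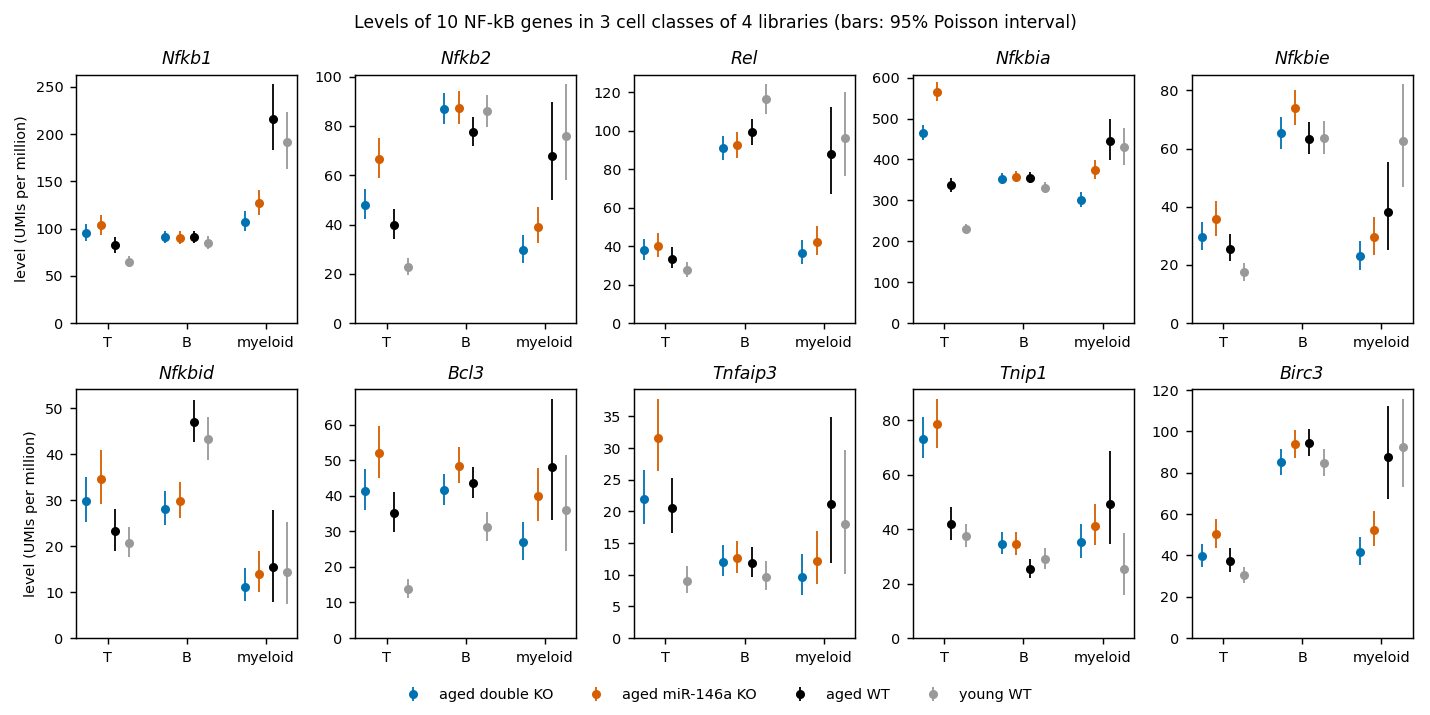
Level of each of the 10 genes (CPM, linear axes from 0) in T, B and myeloid cells, 1 point per library with its 95% Poisson interval, in the order double knockout, 146aKO, aged WT, young WT. In T cells the 146aKO point is the highest for all 10 genes and young WT the lowest, as for Nfkbia at 565 and 231 CPM, whereas in B cells Nfkbid separates both knockouts, at 28.1 and 29.9 CPM, from both WT libraries.

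The makeup of the T cells moved with these levels. Mem Cd4 cells held 27.7% of the T cell UMIs in the double knockout, 34.0% in 146aKO, 21.8% in aged WT and 9.62% in young WT. The regulatory T cell markers Foxp3, Il2ra and Ikzf2 summed to 573, 782, 383 and 119 CPM in T cells of the same libraries, with none of the 3 at 0. When each T cell type was given its aged WT share, 9 of 10 members remained above 1 in 146aKO over aged WT, Rel being the exception at a log2 ratio of -0.02. The number at least 1.5-fold higher was then 1, Tnip1, at a log2 ratio of 0.85. Nfkbia had a log2 ratio of 0.42 with that mix and 0.74 without it. Shares over all genes were not computed with that mix. With Mem Cd4 cells left out, 9 of 10 members were above 1, and Rel was again the exception. The median log2 ratio of the members was then 0.45, beside 0.03 for all genes.

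Within Mem Cd4 cells all 10 genes were above aged WT in 146aKO, against 49% of the 5298 genes tested there, and 2 of 10 were at least 1.5-fold higher, against 4.55% of genes. These were Nfkb2, at 102 CPM in the double knockout, 104 CPM in 146aKO, 56.2 CPM in aged WT and 41.6 CPM in young WT (146aKO over aged WT 1.85, 1.35 to 2.57), and Nfkbid, at 48.7, 55.8, 25.1 and 36.4 CPM (2.22, 1.40 to 3.65). Nfkbid again rested on few cells, 2 of which held 17 of the 75 UMIs in 146aKO. Nfkbia was at 861 CPM in the double knockout, 938 CPM in 146aKO, 689 CPM in aged WT and 364 CPM in young WT in these cells, and at least 1 UMI was seen in 56.4%, 61.5%, 53.9% and 43.0% of them. After thinning every cell to 1000 UMIs these shares were 42.3%, 44.8%, 40.2% and 23.8%. The summed regulatory T cell markers in Mem Cd4 cells were 1514, 1695, 1256 and 788 CPM, and their part in these differences was not tested.

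Tnip1 was above 1 in all 4 T cell types that had at least 10 of its UMIs in both libraries. Its ratio of 146aKO to aged WT was 2.59 (1.42 to 4.73) in naive CD8 (Nai Cd8), 2.16 (1.41 to 3.34) in naive CD4 (Nai Cd4), 1.60 (1.14 to 2.25) in Mem Cd8 and 1.48 (1.09 to 2.03) in Mem Cd4 cells. Each of these 4 intervals lay above 1. Nfkbia had ratios of 1.42 (1.21 to 1.66) in Nai Cd4, 1.361 (1.239 to 1.496) in Mem Cd4 and 1.36 (1.17 to 1.57) in Mem Cd8 cells, and 1.02 (0.75 to 1.39) in Nai Cd8 cells. Bcl3 was above 1 in all 4 types, with the highest ratio, 1.97 (1.28 to 3.06), in Mem Cd8 cells. Not every member was above 1 in each type. In Nai Cd4 cells 5 of 9 measured members were, with a median log2 ratio of 0.16 beside 0.04 for all genes. Nfkbid had a ratio of 0.53 there, from as few as 10 UMIs, and Nfkbie of 0.71. In Mem Cd8 cells 7 of 10 were above 1, with a median of 0.43 beside 0.002, and in Nai Cd8 cells 4 of 5 measured, with 0.25 beside -0.05. The name Nai Cd4 covered different cells in different libraries: regulatory T cell markers summed to 388 CPM there in the double knockout, 722 CPM in 146aKO, 225 CPM in aged WT and 18.0 CPM in young WT.

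**Figure D3:**
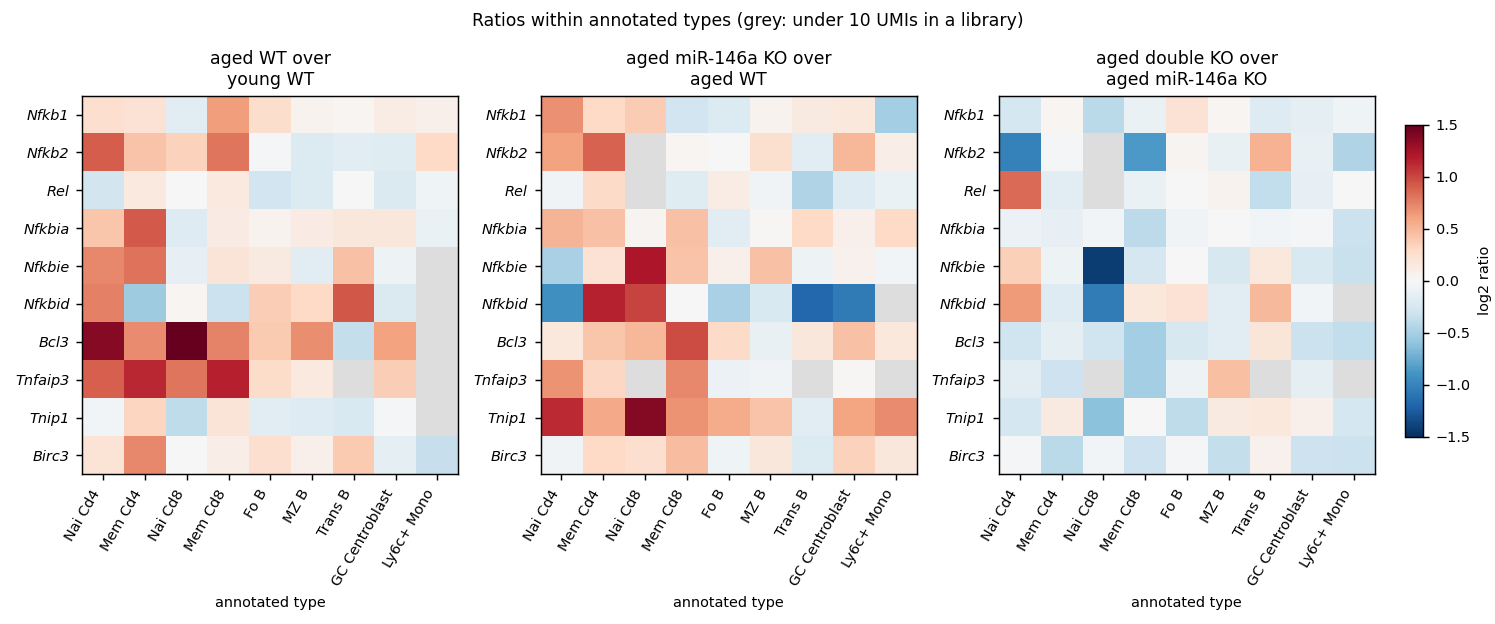
Log2 ratio of each gene within 9 annotated types for aged WT over young WT, 146aKO over aged WT, and double knockout over 146aKO, red for higher and blue for lower in the library named first, grey where a library had under 10 UMIs. The Tnip1 row is red in all 4 T cell types in the middle panel, Bcl3 and Tnfaip3 are red in all 4 in the left panel, and Nfkbid is blue in Trans B and GC Centroblast cells in the middle panel.

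Granulocyte transcripts were measurable in T cells of the knockouts. The 5 granulocyte markers, S100a8 among them, summed to 753 CPM in T cells of the double knockout and 666 CPM in 146aKO, against 16.0 CPM in aged WT and 10.9 CPM in young WT. In both knockouts the granulocyte level of all 10 members was below their T cell level, Nfkbia for example being at 148 CPM in Gran and 465 CPM in T cells of the double knockout. The part of transcripts from granulocytes or other cells in the T cell levels was not tested. Genes induced by tissue dissociation had a median log2 ratio of -0.04 in T cells for 146aKO over aged WT, 0.28 for aged WT over young WT and -0.20 for the double knockout over 146aKO, and their part in the levels was not tested.

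Where miR-155 was also absent from T cells, every member was lower than in 146aKO at the class level. The ratios of the double knockout to 146aKO ran from 0.69 for Tnfaip3 (0.53 to 0.90) to 0.94 for Rel (0.76 to 1.17), with a median log2 ratio of -0.27. A ratio below 1 was found for 55.5% of all genes, whose median was -0.03. None of the 10 was at least 1.5-fold lower, a size reached by 4.56% of genes. Besides Tnfaip3, intervals lay below 1 for Nfkbia at 0.82 (0.78 to 0.87), Nfkb2 at 0.72 (0.60 to 0.86), Bcl3 at 0.80 (0.65 to 0.97) and Birc3 at 0.79 (0.65 to 0.97). The share of all genes with such an interval was not computed. Tnip1, at 0.93 (0.80 to 1.09), and Nfkb1, at 0.92 (0.81 to 1.06), had intervals that included 1. Rel was above 1 with the aged WT mix of types, without Mem Cd4 cells and without cells carrying markers of other classes, and Tnfaip3 was above 1 after thinning.

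The size and the direction of this difference varied with the type. In Nai Cd4 cells 3 of 9 measured members were above 1, with a median log2 ratio of -0.09 beside -0.03 for all genes. Rel had a ratio of 1.80 there and Nfkbid of 1.56, the latter from as few as 10 UMIs. In Mem Cd8 cells Nfkb2 had a ratio of 0.55 (0.35 to 0.86) and Nfkbia of 0.76 (0.66 to 0.88). In Mem Cd4 cells 8 of 10 members were below 1, against 45% of genes, with a median log2 ratio of -0.14, and Nfkbia had a ratio of 0.917 (0.847 to 0.993). The comparison shares the 146aKO library with the one before, so low values here and high values there are not separate observations. Set against aged WT, the double knockout had all 10 members above 1, as had 53.6% of all genes, with a median log2 ratio of 0.23, and Tnip1 alone was at least 1.5-fold higher (1.75, 1.47 to 2.10), a size reached by 3.38% of genes. In this comparison 9 of 10 were above 1 without Mem Cd4 cells, where Nfkb2 had a log2 ratio of -0.37, with the aged WT mix, where Tnfaip3 was below 1, and without cells carrying markers of other classes, where Birc3 was. Without Mem Cd4 cells the median of the members was 0.088, beside 0.001 for all genes. Shares over all genes were not computed for the mix and the marker setting.

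With age in WT T cells, summed as a class, the members were again all higher, but others led. The median log2 ratio of aged WT to young WT was 0.45, with 10 of 10 above 1 against 65.3% of all genes, whose median was 0.10. Of the 10, 3 were at least 1.5-fold higher, against 11.4% of genes, and 5 were when levels were averaged over cells. These were Bcl3 with 2.57 (2.00 to 3.31), Tnfaip3 with 2.29 (1.66 to 3.15) and Nfkb2 with 1.74 (1.41 to 2.15). Tnip1, the leading gene in 146aKO, had a ratio of 1.11 (0.92 to 1.34) with age, and was below 1 without Mem Cd4 cells, as was Nfkbid with the aged WT mix and without cells carrying markers of other classes.

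The age difference in Bcl3 and Tnfaip3 was present in each of the 4 T cell types. Bcl3 ratios of aged WT to young WT ran from 1.64 in Mem Cd4 to 3.15 in Nai Cd8 cells and those of Tnfaip3 from 1.74 in Nai Cd8 to 2.24 in Mem Cd8 cells, some from as few as 10 UMIs. Nfkbia was uneven, with 1.89 (1.64 to 2.18) in Mem Cd4 cells, 1.33 (1.17 to 1.52) in Nai Cd4 cells, and 0.87 (0.72 to 1.05) in Nai Cd8 cells. Without Mem Cd4 cells its log2 ratio in the T cell class was 0.15, against 0.55 with them. Mem Cd8 cells held 31.7% of T cell UMIs in aged WT and 15.6% in young WT. In Mem Cd4 cells 9 of 10 members were above 1, with a median log2 ratio of 0.57 beside 0.12 for all genes. In Mem Cd8 cells 9 of 10 were above 1, with 0.20 beside 0.05, and in Nai Cd4 cells 7 of 9 measured, with 0.41 beside 0.09. In Nai Cd8 cells 1 of 5 measured was, with a median log2 ratio of -0.16 beside -0.03 for all genes. Those below 1 included Nfkbid in Mem Cd4 (0.69), Rel in Nai Cd4 (0.82) and Tnip1 in Nai Cd8 cells (0.77).

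**Figure D4:**
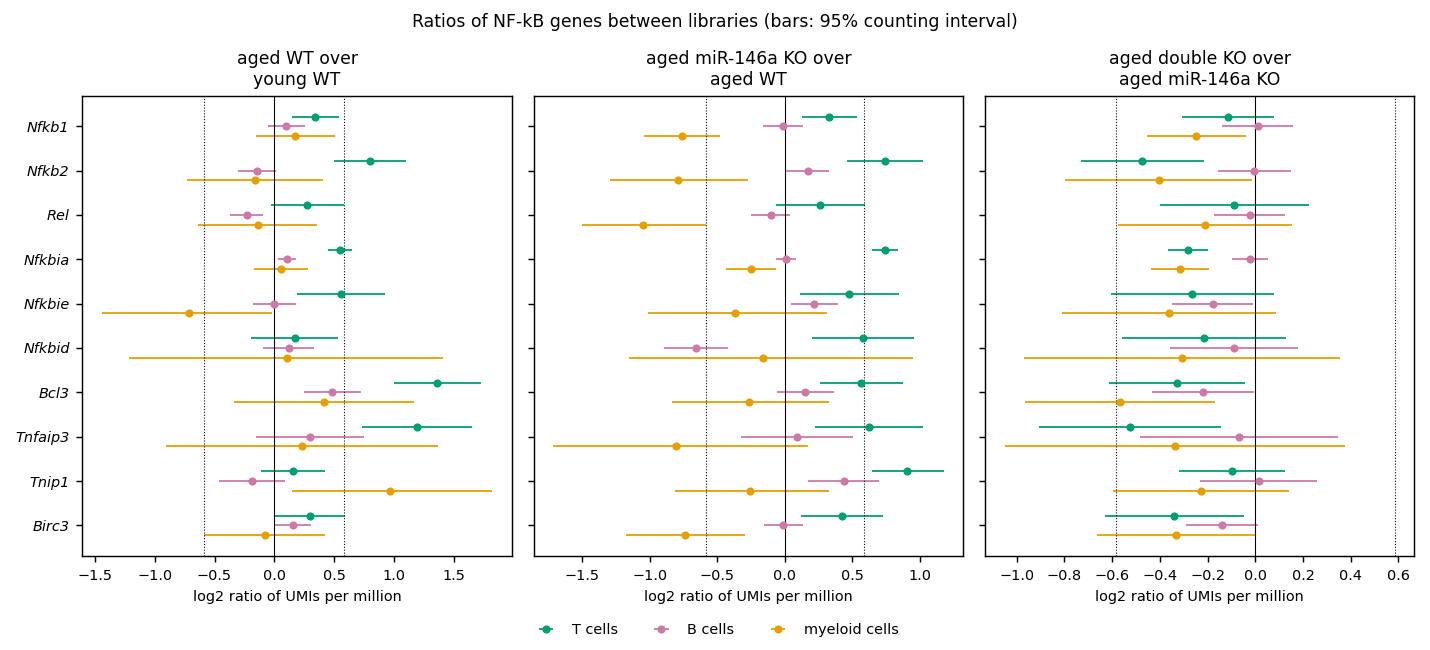
Log2 ratios with 95% counting intervals for the 10 genes in T, B and myeloid cells and 3 comparisons, with dotted lines at 1.5-fold. In T cells all 10 points lie right of 0 in the left and middle panels and left of 0 in the right panel. B cell points lie within the 1.5-fold lines, Nfkbid in the middle panel being the exception, and myeloid points lie left of 0 in the middle and right panels.

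Other genes of the pathway were read from lists of their parts. In T cells of 146aKO against aged WT, target genes had a median log2 ratio of 0.66 over 24 genes, with 13 at least 1.5-fold higher and 1 lower, against 7.09% and 4.39% of all genes. The chemokine gene Ccl3 was at 22.6 CPM in the double knockout, 107 CPM in 146aKO, 6.36 CPM in aged WT and 1.63 CPM in young WT, and Ccl4 at 75.7, 223, 40.5 and 13.6 CPM. At the other end of the list, the cell cycle gene Myc was at 35.9, 23.0, 40.3 and 45.8 CPM. Targets in the double knockout against 146aKO had a median of -0.36, with 7 of 24 lower and 1, Myc, higher, against 4.56% and 3.08% of all genes. With age 14 of 24 targets were higher and none lower, against 11.4% and 2.1% of all genes, with a median of 1.30 beside 0.10 for all genes. Target levels are given for the whole T cell class alone, and the part of the changed mix of types in them was not tested.

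Receptors, ligands and the signalling chain were less uniform, and their counts stand beside 7.09% of all genes at least 1.5-fold higher and 56.8% above 1. Of 8 receptor genes measured, 4 were at least 1.5-fold higher in 146aKO T cells, led by Tnfrsf9, which encodes the costimulatory receptor 4-1BB, at 101 CPM in the double knockout, 141 CPM in 146aKO, 48.4 CPM in aged WT and 15.8 CPM in young WT. Of 7 ligand genes 1 was higher, Tnfsf11 (RANKL). Of 25 adaptor and kinase genes 1 was higher, Irak2, and the median was 0.19. Traf6, a known target of miR-146a, had 7.73, 12.9, 8.77 and 8.26 CPM, and its ratio of 146aKO to aged WT was 1.47 (0.95 to 2.29) in 51 and 40 UMIs. Of the 4 other subunit and IkB genes Relb alone passed 1.5-fold, at 1.62 (1.35 to 1.95), and of 10 other negative regulators none did, though 9 were above 1. The median of the 10 members, 0.57, lay between the 0.19 of adaptors and kinases and the 0.66 of targets, an order that was not tested.

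B cells showed little of this. The median log2 ratio of the members was 0.05 for 146aKO over aged WT, -0.05 for the double knockout over 146aKO and 0.10 for aged WT over young WT, beside -0.05, 0.03 and -0.02 for all 9291 genes tested. No member was at least 1.5-fold higher in any of these 3 comparisons, where 4.98%, 1.44% and 2.71% of genes were. Nfkbia was at 353 CPM in the double knockout, 358 CPM in 146aKO, 356 CPM in aged WT and 331 CPM in young WT, and the interval for 146aKO over aged WT was 0.96 to 1.06. Tnip1 was the member with the highest ratio in B cells of 146aKO as well, at 34.7, 34.4, 25.5 and 29.0 CPM (146aKO over aged WT 1.35, 1.13 to 1.62). Bcl3 had the highest ratio with age, 1.40 (1.19 to 1.65). Rel was at 90.7, 92.3, 99.1 and 116 CPM, and its ratio of aged WT to young WT was 0.85 (0.78 to 0.94).

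Nfkbid was the exception in B cells. It was at 28.1 CPM in the double knockout and 29.9 CPM in 146aKO, against 47.1 CPM in aged WT and 43.3 CPM in young WT. Both knockouts were below both WT libraries, with a ratio of 0.64 (0.54 to 0.75) for 146aKO over aged WT. It was the 1 of 10 members at least 1.5-fold lower, a size reached by 2.77% of genes, and was not past that size as a mean over cells, after thinning or without cells carrying markers of other classes. In GC Centroblast cells it was at 65.4 and 67.0 CPM in the knockouts against 140 and 162 CPM in aged and young WT (146aKO over aged WT 0.48, 0.38 to 0.60). The cells under that name also differed in Fas, a death receptor gene high in germinal centre B cells, which was at 55.4 CPM in the double knockout and 53.4 CPM in 146aKO, against 14.7 CPM in aged WT and 13.8 CPM in young WT. The part of this difference in the Nfkbid levels was not tested.

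Part of that difference lay in a small number of cells. GC Centroblast cells with at least 5 Nfkbid UMIs numbered 4 of 450 in the double knockout, 7 of 425 in 146aKO, 15 of 450 in aged WT and 13 of 351 in young WT, and they held 34, 48, 137 and 136 UMIs. The other GC Centroblast cells together held 78, 75, 91 and 76 UMIs. These are raw counts, and GC Centroblast cells held 1713635, 1835844, 1627594 and 1305810 UMIs of all genes in the same libraries. The highest single cells held 16, 9, 19 and 20. After thinning to 1000 UMIs, 4.89% (3.09 to 7.31), 5.42% (3.47 to 8.03), 8.22% (5.86 to 11.2) and 9.14% (6.34 to 12.7) of the cells had an Nfkbid UMI (exact Clopper-Pearson intervals). In Fo B cells these shares were 1.73%, 1.61%, 2.15% and 1.85%. Counts from 1 cell are not independent, so the intervals of the summed levels are too narrow here. Without GC Centroblast cells the log2 ratio of Nfkbid in B cells was -0.46, and no member was 1.5-fold lower, against 3.11% of genes. By type, Nfkbid was below 1 for 146aKO over aged WT in all 5 B cell types. Its ratios ran from 0.44 in Trans B to 0.85 in MZ B cells, some from as few as 12 UMIs.

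In myeloid cells all 10 members were lower in 146aKO than in aged WT, and granulocytes moved with that result. A ratio below 1 was found for 73.9% of all genes there. The median log2 ratio was -0.56, against -0.33 for all 6138 genes tested, and 5 of 10 members were at least 1.5-fold lower, against 28.2% of genes. Nfkb1 was at 107 CPM in the double knockout, 127 CPM in 146aKO, 216 CPM in aged WT and 191 CPM in young WT, and Rel at 36.5, 42.3, 87.6 and 96.3 CPM. Gran cells held 53.6% of the myeloid UMIs in the double knockout, 44.0% in 146aKO, 5.401% in aged WT and 5.003% in young WT. In Gran cells of 146aKO, Nfkb1 was at 29.9 CPM, against 204 CPM in the other myeloid cells of that library. Over the 10 members the level in the other myeloid cells was 1.40 to 10.5 times the level in Gran in the double knockout, and 2.47 to 10.3 times in 146aKO.

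TMM library sizes shift every log2 ratio of this comparison by 0.38, and 5 of 10 members were then below 1. With Gran cells left out, 8 members kept at least 100 UMIs, their median log2 ratio was -0.01, and none was 1.5-fold higher or lower, against 9.87% and 6.69% of genes. Nfkbia was then at 479 CPM in the double knockout, 508 CPM in 146aKO, 467 CPM in aged WT and 445 CPM in young WT, with a ratio of 1.09 (0.95 to 1.24) for 146aKO over aged WT. Rel had the lowest ratio, 0.67 (0.48 to 0.93). Within types its ratio was 0.93 in Ly6c+ and 0.96 in Ly6c- monocytes. Tnip1 had a ratio of 1.63 in Ly6c+ monocytes, from as few as 10 UMIs. Its log2 ratio was 0.70 in Ly6c- monocytes, where a library had under 10 of its UMIs. Ly6c+ monocytes held 17.3% of all myeloid UMIs in 146aKO and 48.0% in aged WT, and the part of this mix was not tested. The double knockout over 146aKO gave a median of -0.32 with Gran, all 10 members being below 1 against 63.5% of genes, and -0.11 without. With age the median was 0.08, with 1 member at least 1.5-fold higher, Tnip1, and 1 lower, Nfkbie, against 9.61% and 11.4% of genes, from 21 to 52 UMIs. Over the alternatives these counts ran from 0 to 4 higher and from 0 to 2 lower.

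**Figure D5:**
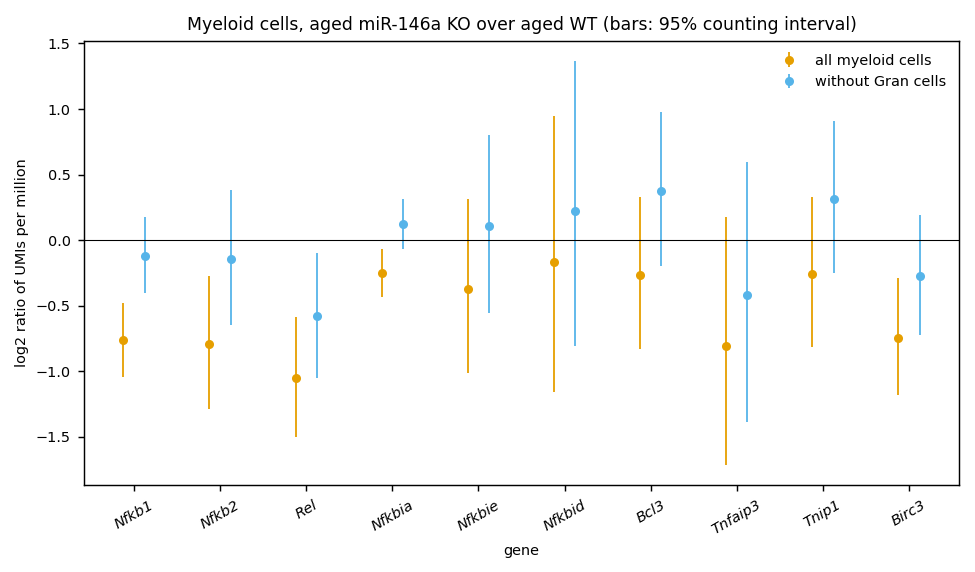
Log2 ratio of 146aKO over aged WT for the 10 genes in all myeloid cells and in myeloid cells without Gran, with 95% counting intervals. The points without Gran are nearer to 0 or above it, as for Nfkb1 at 0.59 in all myeloid cells and 0.92 without Gran on the ratio scale, and Rel stays lowest.

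The members did not share 1 pattern over types and libraries. Over 40 points, 10 types in each of 4 libraries, log2(CPM + 10) of Rel and Birc3 varied together most closely among the 45 pairs (Pearson r 0.84). Rel and Tnip1 were the most opposed (r -0.45). Tnip1 had an r below 0 with Rel, Nfkbie, Birc3, Nfkb2 and, at -0.069, Nfkbid. Among 7624 genes, those most like Nfkbia were Tank (r 0.88), Ube2n and Srgn, those most like Birc3 were Ly6e (r 0.93), Tmem55b and Bcl10, and those most like Tnip1 were Podnl1 (r 0.84), Pdcd1 and Plekhb2. Nfkb2 was most like Serinc3 (r 0.93), Rel like Fam43a (r 0.93), Nfkbie like Arhgap24 (r 0.89), Bcl3 like Casp1 (r 0.89), Nfkb1 like Ccdc28b (r 0.88), Nfkbid like Hsp90ab1 (r 0.84) and Tnfaip3 like Adora2a (r 0.80). These r values describe 40 points that share 4 libraries and the same cell types.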

How the data were processed

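The authors deposited raw counts (UMIs per gene and barcode, not normalised) for each library, made with Cell Ranger 3.0.0 on mm10 per the submitters' processing notes, and cell type names per barcode. The sources used here do not say how those names were set. Both a 3′ and a 5′ kit appear in the labels, and which was used is unclear. Barcodes without a name (3434 of 27577) stayed outside the comparisons.

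The 10 genes and the pathway lists were chosen with earlier results of these data known. The T cell class took every type named Cd4 or Cd8, the B cell class took Fo, MZ and Trans B with both GC types, and the myeloid class took Gran, DC/Mac and both monocyte types. Counts were summed per library and cell group and divided by the group's total. Levels carry exact Poisson intervals and ratios of 2 libraries conditional binomial intervals, all at 95%. No group has replicates, so nothing was tested between groups. At least 1.5-fold is a statement of size. Ratios were computed for all genes with at least 100 UMIs in the cells over the 4 libraries. All members were named, and of each pathway list up to the 2 highest and 2 lowest genes (Traf6 and the examples of types were added after their values were seen). Depth bounds precision: a member had 11 to 3060 UMIs per class and library. Alternatives were TMM library sizes (edgeR 4.0.16, R 4.3.3), a total without immunoglobulin, T cell receptor, mitochondrial, haemoglobin and ribosomal protein genes, a mean over cells, the aged WT mix of types, other UMI minimums, removal of cells with other classes' markers, thinning, and 3 left-out types chosen after seeing the data. Marker sums that include withheld genes are not reported here. The interval code was tested on simulated counts. Python 3.11.15, numpy 2.4.6, scipy 1.17.1 and pandas 2.3.3 were used.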

Additional observations from a re-analysis of the deposited data

Results flagged for a closer look

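In 146aKO over aged WT all 10 members were above 1 in T cells and below 1 in myeloid cells. Of all genes, 56.8% were above 1 in T cells and 73.9% below 1 in myeloid cells. A member was flagged if it was at least 1.5-fold higher in 1 class and 1.5-fold lower in another, with both intervals excluding 1. Nfkb2 alone met this rule. Nfkb2 was 1.67 times its aged WT level in T cells of 146aKO, whereas in myeloid cells its ratio was 0.578, and both counting intervals excluded 1. The difference between the classes was not tested, since each group had 1 library. In myeloid cells without Gran the ratio was 0.908 (0.639 to 1.31).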

How the results depend on the processing

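No paired analysis was possible because each group had 1 library. Of 1052 member ratios under the alternatives, 943 kept their sign and 949 stayed within their counting interval. These counts include the other UMI minimums, which select members and leave each single ratio as it was. That part of the agreement was fixed in advance, here and in the sign changes counted below. T cell medians kept their sign in all alternatives: 0.41 to 0.63 for 146aKO over aged WT, -0.28 to -0.20 for the double knockout over 146aKO, 0.088 to 0.28 for the double knockout over aged WT and 0.24 to 0.55 for aged WT over young WT. TMM sizes shifted every myeloid log2 ratio of 146aKO over aged WT by 0.38 and every T cell ratio of aged WT over young WT by -0.13.

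Counts of members past 1.5-fold moved as follows. In T cells the number higher with age was 5 as a mean over cells, the number higher in 146aKO was 1 with the aged WT mix, and the number lower in the double knockout against 146aKO was 1 without Mem Cd4 cells. In B cells of 146aKO none was lower as a mean over cells, without cells carrying other classes' markers, after thinning or without GC Centroblast cells (0 in each), and thinning put 1 higher. In myeloid cells with age, the number higher was 2 as a mean over cells, 3 with the aged WT mix, 0 with at least 400 UMIs, 4 without cells carrying other markers and 2 after thinning, and the number lower was 0 in the mix, the 400-UMI and the marker alternatives and 2 after thinning. In myeloid cells of 146aKO the number lower was 1 with TMM sizes, 1 with the aged WT mix, 3 of 4 with at least 400 UMIs, 3 after thinning (with 1 higher) and 0 without Gran. For the double knockout against 146aKO it was 1 with the reduced total, 1 as a mean over cells and 3 after thinning. Single myeloid ratios changed sign in 20 of 84 values for 146aKO over aged WT, 3 for the double knockout over 146aKO, 7 for the double knockout over aged WT and 15 with age. Among members past 1.5-fold, 3 did so: Nfkbie with age to a log2 ratio of 0.12 without cells carrying other markers, Tnip1 with age to -0.069 after thinning, and Bcl3 in the double knockout over aged WT to 0.011 without Gran. Gran was left out after the data were seen, and the cause of these changes was not tested.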
